A study of Mus musculus with 36 samples.

Results

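Collagen transcripts were followed through chronic liver injury by carbon tetrachloride (CCl4), a solvent that hepatocytes convert to toxic radicals. The 9 genes were chosen by symbol, as chains of the fibrils of scar tissue and of the collagens that sit beside those fibrils: Col1a1, Col1a2, Col3a1, Col5a1, Col5a2, Col6a1, Col6a2, Col6a3 and Col14a1. All 9 of 9 symbols stood among the 32544 gene symbols of the count table, and 9 of 9 were among the 15338 genes with enough counts to test. The mice were male C57BL/6N, 8 to 10 weeks old at the start, and RNA came from whole liver. Groups of 6 mice received CCl4 in olive oil by intraperitoneal injection for 2, 6 or 12 months, with a dose of 1 g/kg given by 2 injections a week. Groups of 6 received olive oil alone for 2 or 12 months, and the remaining 6 carried the title of month 0 control while their treatment label read olive oil. Livers of the month 2, 6 and 12 groups were collected 6 days past the final injection. Values with CCl4 therefore describe tissue some days after an acute insult and not its first hours. The labels give no injection schedule or collection day for the month 0 mice. No group received oil for 6 months, and month 6 CCl4 was therefore set against the average of the log2 levels of month 2 and month 12 oil, which leaves its duration unmatched.

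Collagens are built from 3 polypeptide chains wound into a triple helix. Col1a1 and Col1a2 encode the chains of type I collagen, the main load-bearing fibril of scar tissue, and Col3a1 the single chain of type III, which is laid down with it. Col5a1 and Col5a2 encode chains of type V, a minor fibrillar collagen on which type I fibrils start and which limits their width. Col6a1, Col6a2 and Col6a3 encode the chains of type VI, which forms beaded microfilaments around cells and next to basement membranes. Col14a1 encodes the chain of type XIV, a collagen that binds to the surface of fibrils. In injured liver, stellate cells and portal fibroblasts that turn into myofibroblasts are known as the main makers of fibrillar collagen, and mesothelial cells of the liver capsule make collagens too.

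On mm10 (GENCODE vM21 annotation) the genes lie on 6 chromosomes, and some of them are neighbours. Col3a1 (chr1:45311538-45349706, plus strand) and Col5a2 (chr1:45374321-45503282, minus strand) stand next to each other, and Col6a3 lies on the same chromosome (chr1:90765923-90843971, minus strand). Col6a2 (chr10:76595762-76623630) and Col6a1 (chr10:76708792-76726168) also share a chromosome, both on the minus strand. The others are Col1a1 (chr11:94936224-94953042), Col1a2 (chr6:4504814-4541544), Col5a1 (chr2:27886425-28039514) and Col14a1 (chr15:55307750-55520803), all on the plus strand. Annotated noncoding transcripts run on the opposite strand within Col5a1 (2810430I11Rik and Gm13372) and within Col14a1 (1700040F17Rik, Gm18787 and Gm49257). On the same strand, annotated genes overlap Col1a2 (Gm43921), Col3a1 (Gm47302), Col5a2 (Gm38211) and Col6a3 (Gm36970). The library kit keeps strand, but whether the counting used it is not stated in the sources at hand. Reads of the opposite-strand pairs may therefore not be separated, and strand cannot separate those of the same-strand pairs.

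The stretches of 250 bases before the start site are shown for 4 genes that differ in their results or level. Col6a3 was called at all 3 durations, Col5a1 was the 1 gene of 9 whose CCl4 effect differed between months 12 and 2 by the test, Col3a1 was the most abundant per length in 5 of 6 groups, and Col6a2, a partner of Col6a3 in type VI, missed the threshold at months 2 and 12. Whether the CCl4 effects of these 4 genes differ from each other was not tested. Sequences are RefSeq's on GRCm38.p6, printed on the strand of the gene, and no base of these 4 overlaps an exon in GENCODE vM21. Capitals mark matches, on either strand, to any of 5 short motifs. These were CCAAT, to which the factor NF-Y binds, then TATAAA, the TATA box, and GGGCGG, the GC box to which Sp1 binds. The other two were the AP-1 motif TGANTCA and the SMAD element CAGAC.
Col3a1, chr1:45311288-45311537: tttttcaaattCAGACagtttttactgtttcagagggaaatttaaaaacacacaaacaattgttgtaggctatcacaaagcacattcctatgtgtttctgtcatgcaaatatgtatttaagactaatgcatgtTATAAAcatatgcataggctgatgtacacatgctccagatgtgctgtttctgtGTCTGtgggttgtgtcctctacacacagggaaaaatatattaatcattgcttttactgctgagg
Col5a1, chr2:27886175-27886424: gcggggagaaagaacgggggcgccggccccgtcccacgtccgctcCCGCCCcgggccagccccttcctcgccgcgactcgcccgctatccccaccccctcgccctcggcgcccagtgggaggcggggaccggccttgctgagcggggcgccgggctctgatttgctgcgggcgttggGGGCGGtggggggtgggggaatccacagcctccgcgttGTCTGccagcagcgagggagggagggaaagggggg
Col6a2, chr10:76623631-76623880: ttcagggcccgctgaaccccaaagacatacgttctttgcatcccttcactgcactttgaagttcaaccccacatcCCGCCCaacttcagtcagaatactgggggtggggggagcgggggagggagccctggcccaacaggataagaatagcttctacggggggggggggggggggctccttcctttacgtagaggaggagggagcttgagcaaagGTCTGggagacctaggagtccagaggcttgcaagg
Col6a3, chr1:90843972-90844221: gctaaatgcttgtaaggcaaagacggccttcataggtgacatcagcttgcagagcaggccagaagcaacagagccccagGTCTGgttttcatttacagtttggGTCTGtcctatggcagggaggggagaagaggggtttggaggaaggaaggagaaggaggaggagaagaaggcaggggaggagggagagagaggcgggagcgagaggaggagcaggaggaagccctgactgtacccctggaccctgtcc
A TATAAA stood at bases -117 to -112 before the start of Col3a1, with CAGAC at -239 to -235 and, reversed, at -64 to -60. Col5a1 held a reversed GC box at -205 to -200, a forward one at -73 to -68 and a reversed CAGAC at -35 to -31. The Col6a2 stretch held a reversed GC box at -175 to -170 and a reversed CAGAC at -35 to -31. A further RefSeq promoter of Col6a2, chr10:76623405-76623654, is not printed, and 226 of its bases overlap exons in GENCODE vM21. It held reversed GC boxes at -67 to -62, -15 to -10 and -11 to -6, and no CAGAC. The Col6a3 stretch held, of the 5 motifs, only reversed CAGAC, at -171 to -167 and at -147 to -143. Among 32851 RefSeq promoters of the same length, the SMAD element was present in 42.2%, the NF-Y motif in 33.8%, the GC box in 32.7%, the TATA box in 12.4% and the AP-1 motif in 6.75%. A match is a run of letters and not a measured site. RefSeq promoters were matched for 6 of the 9 genes; those of Col1a1, Col5a2 and Col14a1 were not analysed here.

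Library totals ran from 19403247 to 28917545 counts over the 36 mice. Levels below are CPM, counts scaled to a common library total after TMM, a correction of library size based on the bulk of the genes. The 9 genes together took 0.0565% to 0.0874% of all counts in month 2 CCl4, 0.0551% to 0.132% in month 6 CCl4 and 0.0616% to 0.0811% in month 12 CCl4, against 0.0119% to 0.0192% at month 0, 0.0199% to 0.0438% in month 2 oil and 0.0196% to 0.0639% in month 12 oil. Hepatocyte markers led in each library, with a sum over 6 genes of 51300 to 134000 CPM. Transcripts of other organs were present in many libraries: the sum over 8 pancreas genes ran from 1.16 to 35100 CPM, and month 2 CCl4 replicate 6 had 817 CPM of 7 intestinal genes. The month 2 CCl4 library of replicate 1 stood apart in neutrophil transcripts, with 222 CPM over 7 genes, against 14.8 to 24.3 CPM in the other 5 mice of its group. Some oil livers carried high mesothelial transcripts, given below with the results they touch. In bulk tissue, more collagen-making cells and more transcript per cell cannot be told apart.

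Type I collagen rose under CCl4 at month 2. Col1a1 read 29.7, 26.2, 36.6, 45.6, 39.4 and 38.3 CPM in the 6 month 2 CCl4 livers, against 6.58, 14.5, 11.7, 5.9, 13.8 and 29.1 CPM in the 6 month 2 oil livers. Only the last oil mouse, replicate 6, reached into the treated range. The log2 fold change was 1.40 with a standard error (SE) of 0.36 (edgeR adjusted p = 0.0105). Its partner Col1a2 read 65.4, 64.3, 92, 108, 84.9 and 87.2 CPM with CCl4, against 19, 40.3, 26.2, 17.7, 26.2 and 55 CPM with oil. Here the groups did not overlap, and the log2 fold change was 1.44 (SE 0.31, edgeR adjusted p = 0.00222).

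Type III and type V collagen rose in the same mice. Col3a1 read 186, 230, 294, 353, 238 and 258 CPM in month 2 CCl4 livers, against 70.9, 134, 107, 64.9, 104 and 163 CPM in month 2 oil livers, a log2 fold change of 1.28 (SE 0.31, edgeR adjusted p = 0.00596). Col5a1 changed less: it read 16.6, 16.6, 16.8, 19, 15.5 and 17.8 CPM with CCl4, against 7.77, 10.3, 9.05, 8.26, 9.31 and 13.1 CPM with oil, a log2 fold change of 0.82 (SE 0.20, edgeR adjusted p = 0.00575). For Col5a2 the values were 28, 25.7, 33.9, 40.4, 33.3 and 28.6 CPM with CCl4, against 10.3, 15.8, 14.5, 11.1, 15.5 and 20.2 CPM with oil. Its log2 fold change was 1.12 (SE 0.23, edgeR adjusted p = 0.00119). None of these 3 genes had a treated mouse within the range of the oil mice.

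Of the type VI chains, Col6a3 separated the groups most widely in relation to its error. It read 44.4, 33.8, 42.2, 44.5, 36.6 and 43.3 CPM in month 2 CCl4 livers, against 13.5, 16.4, 14.3, 12.7, 13.7 and 19.1 CPM in month 2 oil livers, a log2 fold change of 1.45 (SE 0.15, edgeR adjusted p = 1.24e-07). Col6a1 had 29.9 to 44.5 CPM with CCl4 (median 36.6), against 13.4 to 25.7 CPM with oil (median 16.4), a log2 fold change of 1.06 (SE 0.27, edgeR adjusted p = 0.00952). Col6a2 averaged 18.2 ± 3.21 CPM with CCl4 and 9.74 ± 3.03 CPM with oil (SD, n = 6 each) and did not pass the test (log2 fold change 0.90, SE 0.34, edgeR adjusted p = 0.0811). Without month 2 oil replicate 6, which had 15.3 CPM of Col6a2, its value was 1.08 and passed (edgeR adjusted p = 0.0436). The fibril-surface collagen Col14a1 had the smallest change and little scatter: 125, 107, 147, 122, 116 and 127 CPM with CCl4, against 86.7, 81.8, 77.7, 66.3, 75.7 and 102 CPM with oil, a log2 fold change of 0.60 (SE 0.10, edgeR adjusted p = 0.000212).

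At month 2, therefore, 8 of the 9 collagens were called higher, against 7% of all tested genes, and 0 of 9 lower, against 3.38%. In 7 of 9 each treated mouse stood above each oil mouse, which held for 4.64% of tested genes. The median log2 fold change of the 9 was 1.12, and that of all tested genes was 0. Markers of blood and liver leukocytes were higher in the same mice: 6 of 8 macrophage markers and 6 of 7 neutrophil markers were called. The macrophage sum was 301 to 433 CPM in month 2 CCl4 and 189 to 292 CPM in month 2 oil, and the neutrophil sum 14.8 to 222 CPM in month 2 CCl4 and 5.31 to 12.6 CPM in month 2 oil. Their part in the collagen values was not tested.

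**Figure D1:**
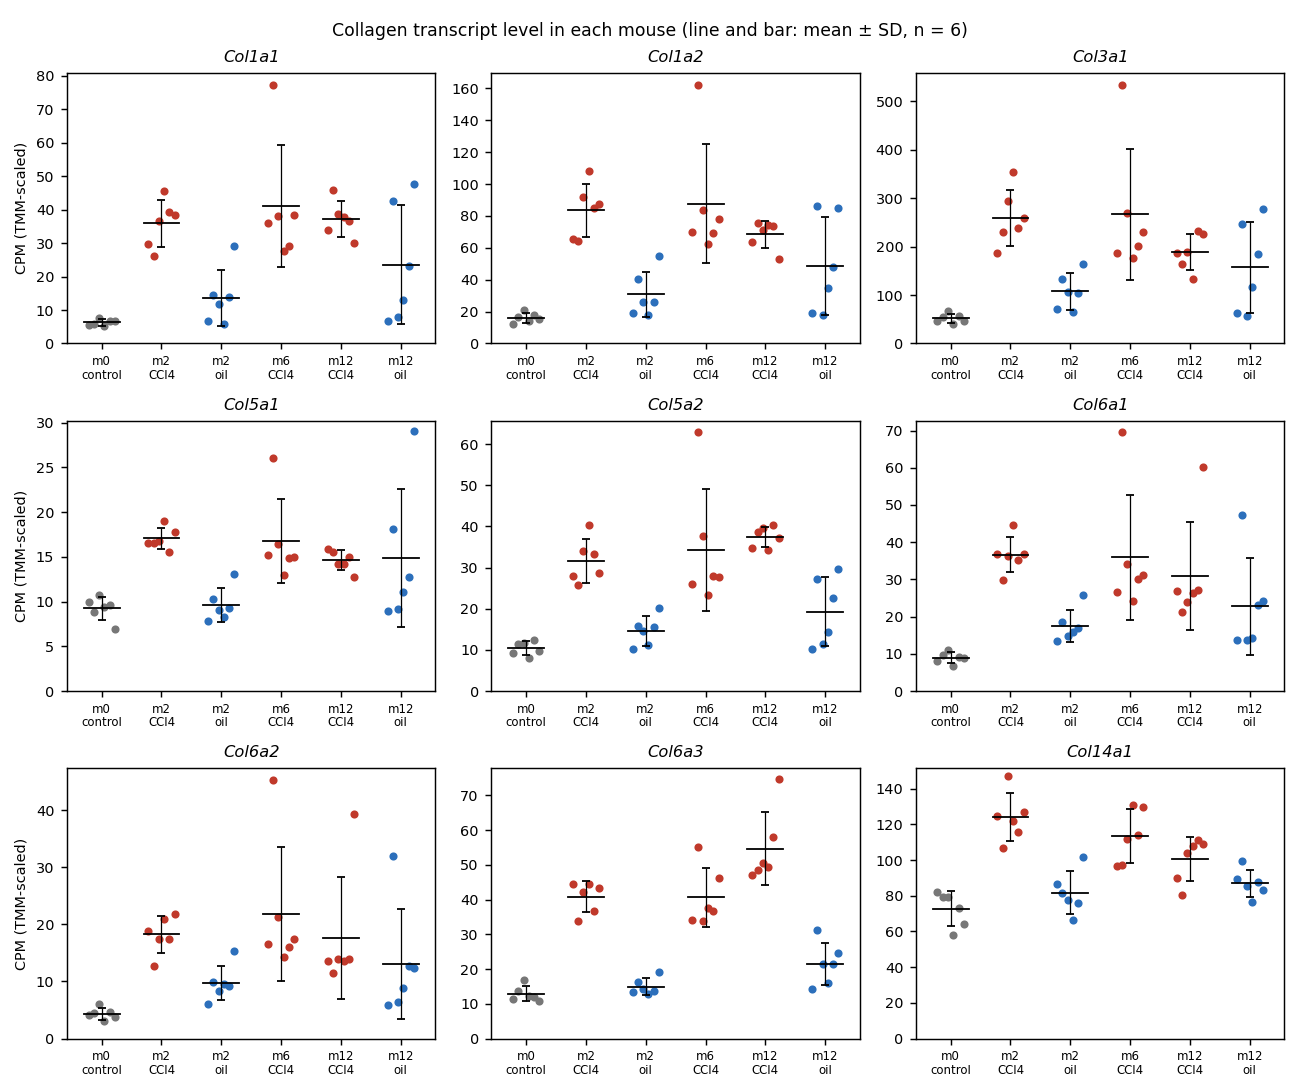
Level of each of the 9 collagen transcripts in every mouse, in CPM after TMM scaling, by group (m0, m2, m6 and m12 are months 0, 2, 6 and 12; red CCl4, blue olive oil, grey month 0 control); the horizontal line is the mean and the bar its SD over 6 mice. For Col3a1 the month 2 CCl4 livers sit between 186 and 353 CPM, above all month 2 oil livers, whereas the month 12 oil livers spread from 55.7 to 278 CPM and cover most of the month 12 CCl4 range.

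After 6 months of CCl4 the mean levels stood close to those of month 2, with 1 mouse far above the rest. Col1a1 read 36, 77.2, 38.1, 27.7, 29.2 and 38.3 CPM in month 6 CCl4 livers, against a highest value of 29.1 CPM in month 2 oil and of 47.7 CPM in month 12 oil. Col3a1 read 187, 533, 270, 176, 202 and 230 CPM. Replicate 2 was the highest of its group in 8 of the 9 genes. In that library the sum of 10 mesothelial markers was 161 CPM, against 36.3 to 68.1 CPM in the other 5 mice; the part of these cells in the collagen values was not tested.

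Against the average of both oil groups, 8 of 9 collagens were called higher at month 6 (7.71% of all tested genes) and 0 lower (3.68%). Col6a3 read 34.2, 55.2, 33.9, 37.7, 36.7 and 46.2 CPM in month 6 CCl4 livers, above each of the 12 oil livers, whose highest was 31.2 CPM, with a log2 fold change of 1.18 (SE 0.13, edgeR adjusted p = 6.82e-08). It was the 1 gene of 9 with such a separation, which 0.867% of tested genes had. The log2 fold changes of Col1a1, Col1a2 and Col3a1 were 1.20 (SE 0.30), 1.18 (SE 0.25) and 1.04 (SE 0.25), with edgeR adjusted p of 0.00672, 0.00174 and 0.00609. Col5a2 had 1.03 (SE 0.19, edgeR adjusted p = 0.000255) and Col14a1 0.43 (SE 0.09, edgeR adjusted p = 0.00114). Col6a1 and Col6a2 had 0.85 and 0.95 (edgeR adjusted p = 0.0117 and 0.0221), and Col5a1, at 0.49 (SE 0.17), fell just short of the threshold (edgeR adjusted p = 0.0528).

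Part of the month 6 result rests on that 1 mouse and on the choice of oil group. Without month 6 CCl4 replicate 2, calls remained for Col1a2, Col5a2, Col6a3 and Col14a1, 4 of 9 (4.39% of tested genes called higher), and the log2 fold changes of Col1a1, Col3a1, Col6a1 and Col6a2 were 0.93, 0.72, 0.56 and 0.61. Against month 12 oil alone, 3 of 9 were called, Col5a2, Col6a3 and Col14a1, where 4.28% of tested genes were called higher. Against month 2 oil alone, 9 of 9 were called, where 5.92% were. With only the compared groups in the fit, 6 of 9 were called (7.33%), Col1a1 and Col6a2 falling just short (edgeR adjusted p = 0.0509 and 0.0537). Col5a1 passed without month 2 oil replicate 6, month 12 oil replicate 2 or 6 or month 6 CCl4 replicate 4.

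At month 12 the treated livers still held collagen transcripts at levels near those of the earlier durations, but the oil livers had become scattered. Col1a1 read 33.9, 45.9, 38.7, 37.8, 36.6 and 29.9 CPM in month 12 CCl4 livers, against 6.65, 42.7, 7.85, 13, 23.3 and 47.7 CPM in month 12 oil livers. Oil replicates 2 and 6 were as high as the treated mice, and the other 4 were lower than each of them. The log2 fold change was 0.65 (SE 0.36, edgeR adjusted p = 0.128). Col1a2 showed the same 2 oil mice at 86.2 and 85.1 CPM, above the highest treated mouse at 75.3 CPM, with a log2 fold change of 0.50 (SE 0.30, edgeR adjusted p = 0.177). Col3a1 read 186, 165, 189, 133, 232 and 226 CPM with CCl4, against 62.1, 246, 55.7, 116, 185 and 278 CPM with oil, and did not pass (log2 fold change 0.26, SE 0.30, edgeR adjusted p = 0.499).

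The chains of type V differed at month 12. Col5a1 read 15.9, 15.5, 14.2, 14.2, 15 and 12.8 CPM in CCl4 livers, against 8.89, 18.1, 9.16, 11.1, 12.8 and 29.1 CPM in oil livers, and its log2 fold change was -0.03 (SE 0.19, edgeR adjusted p = 0.916). Col5a2 read 34.7, 38.6, 39.5, 34.3, 40.3 and 37.2 CPM with CCl4, against 10.2, 27.3, 11.5, 14.3, 22.7 and 29.6 CPM with oil. Each treated mouse stood above each oil mouse, and the log2 fold change was 0.96 (SE 0.22, edgeR adjusted p = 6e-04).

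Among the type VI chains, Col6a3 rose again, at 47, 48.4, 50.5, 49.4, 58.1 and 74.6 CPM in month 12 CCl4 livers, against 14.2, 31.2, 21.6, 16.1, 21.4 and 24.7 CPM in month 12 oil livers (log2 fold change 1.34, SE 0.15, edgeR adjusted p = 1.15e-08). Its partners had 1 outlying mouse on each side. Col6a1 read 26.9, 21.3, 23.9, 26.3, 27.1 and 60.2 CPM with CCl4, against 13.7, 47.2, 13.7, 14.3, 23.2 and 24.2 CPM with oil, and Col6a2 followed it mouse by mouse. Their log2 fold changes of 0.44 (SE 0.27) and 0.43 (SE 0.33) did not pass (edgeR adjusted p = 0.173 and 0.294). Col14a1 averaged 101 ± 12.4 CPM with CCl4 and 86.9 ± 7.62 CPM with oil (SD, n = 6 each), a log2 fold change of 0.21 that did not pass (edgeR adjusted p = 0.0923).

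So 2 of 9 collagens, Col5a2 and Col6a3, were called higher at month 12, where 25.9% of all tested genes were, and 0 were called lower, where 23.2% were. The same 2 of 9 separated all treated from all oil mice, against 12.1% of tested genes. The share called was near the background. The median log2 fold change was 0.44, beside 0.014 over all tested genes. This count depended on the oil mice and on the scaling. It was 5 of 9 without month 12 oil replicate 2, when Col1a1, Col6a1 and Col6a2 joined (26% of tested genes called higher), and 3 of 9 without replicate 6, when Col1a1 joined, or without CCl4 replicate 1 or 2, when Col14a1 joined (24.4%, 26.1% and 26%). With library totals in place of TMM, 9 of 9 were called, but that scaling moved the median of all genes to 0.556 and called 10331 genes, 67.4%, higher against 592 lower.

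**Figure D2:**
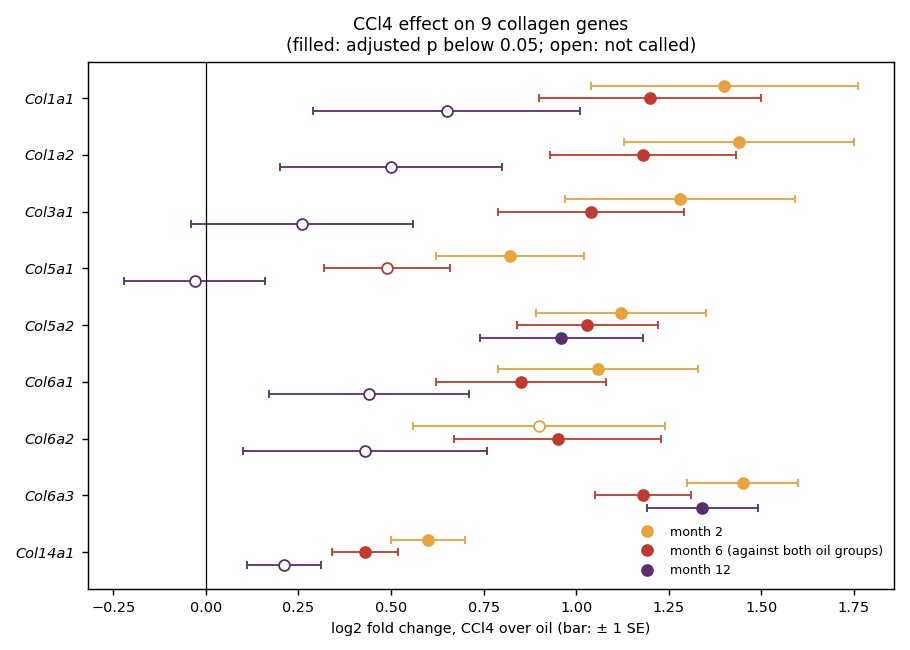
Log2 fold change of each collagen gene in CCl4 over oil livers at months 2, 6 and 12, with bars of 1 SE; filled points passed an edgeR adjusted p of 0.05 and open points did not. Col6a3 stays between 1.18 and 1.45 and Col5a2 between 0.96 and 1.12 at all 3 durations, while Col5a1 runs from 0.82 at month 2 to -0.03 at month 12.

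The difference between the effects at month 12 and month 2 was tested as an interaction. Col5a1 was the 1 gene of 9 called, lower by 0.85 on the log2 scale (log2 difference -0.85, SE 0.28, edgeR adjusted p = 0.0251), where 10.1% of all tested genes were called lower. It lost the call without month 12 oil replicate 6 (-0.55, edgeR adjusted p = 0.0753) or month 12 CCl4 replicate 6 (-0.79, edgeR adjusted p = 0.0502). The call was also lost with library totals as scaling (-0.53, edgeR adjusted p = 0.184), with the mesothelial level as a covariate (-0.60, edgeR adjusted p = 0.108) and without 4 libraries, replicate 2 of both oil groups and month 2 CCl4 replicates 1 and 6 (-0.81, edgeR adjusted p = 0.0759). All 9 differences were below 0, with a median of -0.62, but the other 8 did not pass, from -1.01 for Col3a1 (edgeR adjusted p = 0.0904) to -0.10 for Col6a3 (edgeR adjusted p = 0.778). Col14a1, at -0.39 (SE 0.15), lay next to the threshold (edgeR adjusted p = 0.0519). The count was 3 without month 12 oil replicate 1 or 3 (Col1a2 and Col3a1 joined) or month 2 oil replicate 6 (Col1a2 and Col14a1 joined), and 2 without month 2 CCl4 replicate 2 or month 12 oil replicate 4 (Col14a1 joined); in these fits 9.13% to 9.88% of tested genes were called lower. For Col5a2 and Col6a3 the sign turned with library totals as scaling (0.17 and 0.22).

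In oil livers the 9 collagens had higher means at month 12 than at month 2, but the test called 0 of 9, beside 0.0391% of all tested genes called higher. At an unadjusted p under 0.05 the edgeR test counted 4 of 9, namely Col1a1, Col1a2, Col5a1 and Col6a3, with log2 differences of 0.80, 0.66, 0.63 and 0.53; by that measure 6.1% of all tested genes were higher. DESeq2 and limma-voom also called 0 of 9. The SD was larger in month 12 oil than in month 2 oil for 8 of 9 genes, the exception being Col14a1 (7.62 CPM in month 12 oil and 12 CPM in month 2 oil): Col1a1 averaged 23.5 ± 17.9 CPM in month 12 oil and 13.6 ± 8.4 CPM in month 2 oil (SD, n = 6 each), and Col3a1 157 ± 94.1 CPM in month 12 oil and 107 ± 37.3 CPM in month 2 oil. The upper end was made by 2 oil mice of month 12: replicate 2 was the highest of its group in 5 of 9 genes and replicate 6 in the other 4. Month 2 oil replicate 6 was the highest of its group in 9 of 9 genes.

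Mesothelial transcripts were high in some of these mice. The list held 10 genes, among them Msln, Muc16, Gpm6a and Lrrn4, none of which was at 0 throughout a group. Their sum was 39.4 to 76.8 CPM (median 54.7) in month 2 CCl4, 36.3 to 161 CPM (median 61.3) in month 6 CCl4 and 10 to 63.8 CPM (median 33.5) in month 12 CCl4, against 8.07 to 23.7 CPM (median 15.9) at month 0, 31.5 to 69.6 CPM (median 37.2) in month 2 oil and 28.5 to 218 CPM (median 41) in month 12 oil. Month 12 oil replicate 2 held the 218 CPM and month 2 oil replicate 6 the 69.6 CPM. By contrast month 12 oil replicate 6, as high in type I and type III collagen as replicate 2, had 39.2 CPM, within the range of its group. Month 12 CCl4 replicate 6, the mouse with the most Col6a1, Col6a2 and Col6a3 of its group, had the lowest sum of all treated mice at 10 CPM. Of the 10 markers, 0 were called at month 2, 0 at month 6 and 4 at month 12, when Muc16, Nkain4, Bnc1 and Rspo1 were lower with CCl4, beside 23.2% of all tested genes. Their highest values in month 12 oil were 43.8, 12, 9.54 and 10.2 CPM, beside medians of 7.38, 2.06, 1.53 and 1.72 CPM. The medians in month 12 CCl4 were 4.73, 0.925, 1.07 and 1.22 CPM. Whether these 4 calls hold without month 12 oil replicate 2 was not tested.

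The 2 oil mice with the highest mesothelial sum of their groups were left out, a choice made after seeing the data. This gave 9 of 9 calls at month 2, 9 at month 6 and 7 at month 12, where 8.28%, 11.3% and 27.4% of tested genes were called higher. These mice, month 2 oil replicate 6 and month 12 oil replicate 2, were also the highest of their groups in 9 of 9 and 5 of 9 collagens. Leaving them out lowers the oil levels of those genes whatever their mesothelial content, so the gain in calls cannot be assigned to mesothelial cells. With the mesothelial level as a covariate in the fit, 8 of 9, 7 of 9 and 6 of 9 were called at months 2, 6 and 12, where 5.99%, 5.33% and 27.2% of tested genes were. Portal fibroblast markers were higher with CCl4 at months 2 and 6 in part: of 8 tested, 3 were called at each, Mfap4, Dpt and Entpd2 (log2 fold changes 1.58, 1.37 and 0.65 at month 2, and 1.24, 0.99 and 0.71 at month 6). Of all tested genes, 7% and 7.71% were called higher. At month 12 Mfap4 (1.22) and Entpd2 (2.17) were called higher and Clec3b lower (-1.57), beside 25.9% and 23.2% of all tested genes. These month 12 shares did not exceed the background. Clec3b was scarce, at 0.182 ± 0.108 CPM in month 12 CCl4 and 0.551 ± 0.713 CPM in month 12 oil (SD, n = 6 each), where its median was 0.324 and its highest value 1.98 CPM. The sum of the 9 listed genes was 31 to 49.1 CPM in month 2 CCl4, 33.1 to 71.8 CPM in month 6 CCl4 and 33.5 to 54.7 CPM in month 12 CCl4, against 16.2 to 31.2 CPM in month 2 oil and 17.1 to 73.1 CPM in month 12 oil. Replicate 2 held the highest value of month 6 CCl4 and of month 12 oil, whose other 5 mice had 17.1 to 29.5 CPM. Macrophage markers were called higher for 6 of 8 at month 6 and 8 of 8 at month 12. Their sum over 8 genes was 277 to 724 CPM in month 6 CCl4 and 644 to 1370 CPM in month 12 CCl4, against 188 to 285 CPM in month 12 oil. Much of the month 12 sum was Spp1, which averaged 476 ± 311 CPM in month 12 CCl4 and 50.4 ± 18.4 CPM in month 12 oil (SD, n = 6 each). Cd9, also listed, averaged 91.2 ± 26 CPM in month 12 CCl4 and 20.8 ± 2.5 CPM in month 12 oil. Neither gene was called at month 2. Neutrophil markers were called higher for 3 of 7 at month 6 and 0 of 7 at month 12. Of all tested genes, 7.71% and 25.9% were called higher at months 6 and 12. Of 7 smooth muscle and myofibroblast markers, 0 were called at months 2 and 6. At month 12, 1 was called higher, Tagln, beside 25.9% of all tested genes. Tagln averaged 14.4 ± 3.23 CPM in month 12 CCl4 and 9.48 ± 1.85 CPM in month 12 oil (SD, n = 6 each). Its CCl4 effect was also called higher at month 12 than at month 2. Acta2, of the same list, was not called at any duration (log2 fold changes -0.04, -0.37 and 0.43 at months 2, 6 and 12). Of 12 stellate cell markers, 7 were called lower and 1 higher, Cygb, at month 12, beside 23.2% and 25.9% of all tested genes. What part any of these cells had in the collagen values was not tested.

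**Figure D3:**
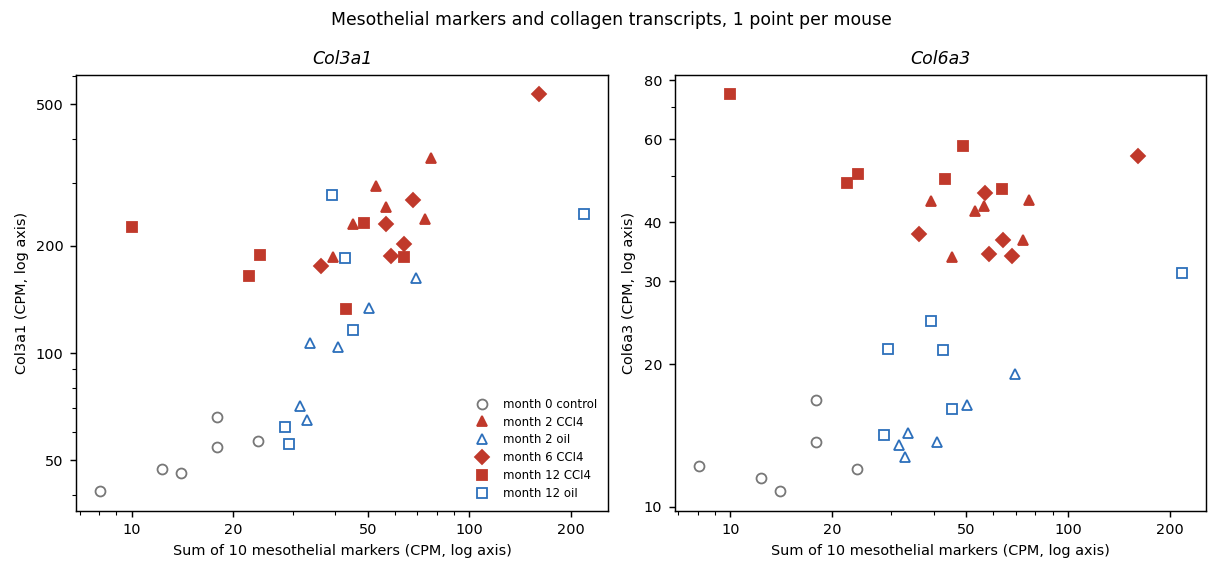
Col3a1 (left) and Col6a3 (right) against the sum of 10 mesothelial markers in each mouse, all in CPM on log axes; filled red symbols are CCl4 livers and open symbols oil or month 0 livers, with triangles for month 2, diamonds for month 6, squares for month 12 and circles for month 0. Month 12 oil replicate 2, at 218 CPM of mesothelial markers, lies among the treated mice for Col3a1 (246 CPM) but below all of them for Col6a3 (31.2 CPM).

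The ordering of the groups was alike for most of the genes. Month 0 had the lowest mean and month 2 oil the next for 9 of 9 genes. Col1a1, for example, averaged 6.28 ± 0.916 CPM and Col6a2 4.34 ± 1.03 CPM at month 0 (SD, n = 6). Month 12 oil came next after them for 8 of 9, the exception being Col5a1, whose month 12 CCl4 mean of 14.6 ± 1.11 CPM lay below its month 12 oil mean of 14.9 ± 7.73 CPM (SD, n = 6 each). The highest mean was in month 6 CCl4 for Col1a1, Col1a2, Col3a1 and Col6a2, in month 2 CCl4 for Col5a1, Col6a1 and Col14a1 and in month 12 CCl4 for Col5a2 and Col6a3. Neighbours in this order overlapped in their ranges in 5 of 5 steps for each gene except Col6a1 and Col6a2 (4 of 5) and Col6a3 (3 of 5).

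Compared per kilobase of annotated exon, Col3a1 was the most abundant at 46.7 ± 10.3, 47.9 ± 24.2 and 33.9 ± 6.71 CPM per kb in month 2, 6 and 12 CCl4 livers (SD, n = 6 each), against 19.3 ± 6.71 in month 2 oil and 28.2 ± 16.9 in month 12 oil. Col14a1 came second in these 5 groups and first at month 0, with 11.3 ± 1.5 CPM per kb, ahead of Col3a1 at 9.36 ± 1.63. Col5a1 was the lowest of the 9 in all groups but month 0, where Col6a2 was, at 0.722 ± 0.172 CPM per kb.

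The balance between collagen transcripts was read from ratios of the counts of 2 genes within a mouse, in which library size cancels. The counts were not scaled for transcript length, and the chain makeup of assembled collagen was not measured. These ratios were tested by a two-sided exact permutation test, with p-values adjusted over 12 tests, of which 5 passed. Col5a2 over Col5a1 was 2.19, 2.49, 2.79, 2.42, 2.69 and 2.91 in month 12 CCl4 livers, against 1.14, 1.51, 1.25, 1.28, 1.77 and 1.02 in month 12 oil livers. The groups did not overlap, and the log2 difference was 0.98 (exact permutation p = 0.00216, the smallest that 6 against 6 allows; adjusted p = 0.013). At month 6 the ratio ran from 1.7 to 2.41, against 1.02 to 1.77 in the 12 oil mice (log2 difference 0.50, exact permutation test, adjusted p = 0.00194). At month 2 it ran from 1.55 to 2.14, against 1.33 to 1.66 (log2 difference 0.30, exact permutation test, adjusted p = 0.0416), a call lost without CCl4 replicate 1, 3, 4 or 5 or without oil replicate 1, 2, 3 or 4 (adjusted p = 0.0519 to 0.0816, exact permutation). At month 0 the ratio was 0.851 to 1.4.

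Within type VI collagen, Col6a3 over Col6a1 was 1.74, 2.27, 2.11, 1.88, 2.14 and 1.24 in month 12 CCl4 livers, against 1.04, 0.66, 1.57, 1.13, 0.924 and 1.02 in month 12 oil livers. Of the 6 treated mice, 5 lay above all oil mice, and the log2 difference was 0.87 (exact permutation p = 0.00433, adjusted p = 0.013). At month 2 the ratio was 1.0 to 1.21 with CCl4 and 0.742 to 1.01 with oil, a log2 difference of 0.37 (exact permutation test, adjusted p = 0.013). At month 6 the difference of 0.34 did not pass (exact permutation test, adjusted p = 0.0809), but did without month 6 CCl4 replicate 2 or month 12 oil replicate 3 (exact permutation test, adjusted p = 0.0341 and 0.0326). Month 0 mice, at 1.21 to 1.82, stood above both oil groups in median. The ratio of the type I transcripts moved less: Col1a1 over Col1a2 was 0.498 to 0.61 in month 12 CCl4 livers and 0.344 to 0.561 in month 12 oil livers (log2 difference 0.29, exact permutation test, adjusted p = 0.0631). Col1a1 over Col3a1 had a log2 difference of 0.55 at month 12 that did not pass either (exact permutation test, adjusted p = 0.0631). The number of ratios called was 8 without month 12 oil replicate 2 or replicate 6 and 9 without month 2 oil replicate 6. Col1a1 over Col3a1 joined in each case. Col1a1 over Col1a2 at month 12 joined without month 12 oil replicate 2 (0.32) or replicate 6 (0.35), with adjusted p of 0.0455 and 0.00866 (exact permutation test). As p-values were adjusted over 12 tests together, a ratio can pass without a change in its own mice. The remaining type VI pair kept close together, with a Col6a2 over Col6a1 median of 0.489 in month 2 CCl4, 0.606 in month 6 CCl4 and 0.526 in month 12 CCl4, against 0.482 at month 0, 0.553 in month 2 oil and 0.532 in month 12 oil.

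**Figure D4:**
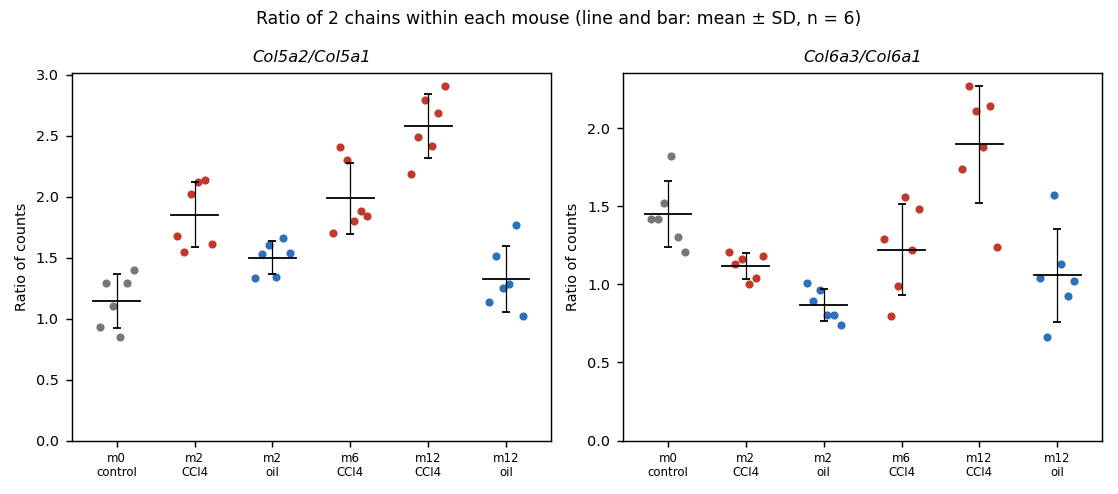
Ratio of Col5a2 to Col5a1 counts (left) and of Col6a3 to Col6a1 counts (right) in each mouse, by group (red CCl4, blue olive oil, grey month 0 control), with the mean and SD over 6 mice. The month 12 CCl4 mice sit between 2.19 and 2.91 for type V, above all oil and month 0 mice, and between 1.24 and 2.27 for type VI.

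Mice that were high for 1 collagen within their group were mostly high for the others, but not in month 12 CCl4. There replicate 6 was the highest of its group in 3 of 9 genes and the lowest in 3. Replicate 2 of that group was the highest in 2 and the lowest in 3. Over the 36 libraries, after removing group means, Col1a1 and Col1a2 had a correlation of 0.97, Col6a1 and Col6a2 0.97 and Col3a1 and Col5a2 0.94. The genes were read in the same libraries and share their depth and tissue makeup, so the values are descriptions. The median correlation of a gene with the other 8 was highest for Col3a1 at 0.81 and 0.65 for Col6a3. Col14a1 stood apart at 0.17. Among 12926 other genes, the ones whose pattern within groups was most like that of the 9 were Fstl1 (r = 0.94), Fbn1 (0.93), Ahnak (0.86), Sparc (0.86), Vim (0.85), Mmp2 (0.84), Cyp1b1 (0.84) and Antxr1 (0.83), again over 36 libraries.

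Other genes of collagen biology are given by list, beside 7%, 7.71% and 25.9% of all tested genes called higher and 3.38%, 3.68% and 23.2% called lower at months 2, 6 and 12. Of 9 further fibrillar and type VI chains, 6 had enough counts to test, and none was called at month 2. Col6a6, a further type VI chain, was called at month 6 (log2 fold change 1.22, SE 0.29) and month 12 (1.18, SE 0.35), and Col24a1 was lower at month 12 (-1.67, SE 0.50). Of 22 tested collagens of other types, 5 were called higher at month 2, 4 at month 6 and 10 at month 12, with 3 lower at month 12. Col4a1, a chain of the basement membrane collagen type IV, averaged 76.9 ± 13 CPM in month 2 CCl4 and 45.2 ± 8.2 CPM in month 2 oil, and 198 ± 64.2 CPM in month 12 CCl4 and 57.1 ± 9.46 CPM in month 12 oil (SD, n = 6 each), log2 fold changes of 0.77 (SE 0.18) and 1.79 (SE 0.18). The difference between these effects was 1.03 (SE 0.25, edgeR interaction, adjusted p = 0.00355). The type IV chain Col4a5 was higher at all 3 durations (1.82, 1.80 and 2.06 on the log2 scale at months 2, 6 and 12), as was the low-abundance Col28a1 (2.70, 3.73 and 4.01), of which no treated group averaged over 0.95 CPM.

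Of 19 tested genes that serve the folding, hydroxylation and export of collagen chains in the endoplasmic reticulum, 3 were called higher at month 2, 5 higher and 2 lower at month 6, and 5 higher and 3 lower at month 12, with medians of 0.24, 0.19 and 0.13 on the log2 scale. The counts at month 12 were near or below the shares over all genes. Plod2, a lysyl hydroxylase whose product sets the type of crosslink, rose at months 2 and 6 (1.04, SE 0.31 and 0.98, SE 0.25) and had 0.12 (SE 0.30) at month 12. P3h2, a prolyl 3-hydroxylase, rose at all 3 (0.53, 0.60 and 0.64), as did the collagen galactosyltransferase Colgalt1 (0.24, 0.16 and 0.59), while Colgalt2 fell at months 6 and 12 (-1.23 and -1.32).

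For propeptide removal and crosslinking, 3 of 12 tested genes were called higher at month 2, 4 higher and 2 lower at month 6 and 5 higher and 2 lower at month 12. Loxl2, a lysyl oxidase that starts crosslinks, averaged 11.8 ± 0.819 CPM in month 2 CCl4 and 5.46 ± 0.972 CPM in month 2 oil, and 18.2 ± 3.94 CPM in month 12 CCl4 and 7.41 ± 2.48 CPM in month 12 oil (SD, n = 6 each). Its log2 fold changes were 1.10, 0.85 and 1.29 at months 2, 6 and 12 (edgeR adjusted p = 6.58e-05, 0.000139 and 2.17e-07). Adamts2, a protease that removes the amino-terminal propeptide, rose by 0.72, 0.68 and 0.39 on the same scale. Lox itself was not called (0.71, 0.70 and 0.04).

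Of 15 tested matrix genes whose products bind collagen, 4 were called higher at month 2, 4 at month 6, and 6 higher and 3 lower at month 12. Lum, a small proteoglycan that coats fibrils, averaged 56.5 ± 8.58 CPM in month 2 CCl4 and 17.2 ± 4.6 CPM in month 2 oil, and 47.4 ± 13.8 CPM in month 12 CCl4 and 24.8 ± 7.56 CPM in month 12 oil (SD, n = 6 each). Its log2 fold changes were 1.71, 1.29 and 0.93. Sparc, a collagen-binding glycoprotein, rose by 0.91, 0.64 and 0.88 and Thbs2 by 1.03, 1.13 and 1.06 on the log2 scale, whereas Dcn, the proteoglycan decorin, had 0.35 and 0.10 at months 2 and 6 and fell by 0.53 at month 12.

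Genes of collagen breakdown and genes of its inhibitors, Timp1, Timp2, Timp3 and Timp4, were counted in 1 list. Of 17 tested, 5 were called higher at month 2, 4 at month 6 and 8 at month 12, with 1 lower at month 12. Mmp2, a gelatinase, averaged 14.8 ± 2.04 CPM in month 2 CCl4 and 3.62 ± 1.51 CPM in month 2 oil, and 12.4 ± 1.93 CPM in month 12 CCl4 and 5.99 ± 3.96 CPM in month 12 oil (SD, n = 6 each), with log2 fold changes of 2.03, 1.41 and 1.05. Ctsk, a cysteine protease that cleaves collagen, rose by 1.04, 1.68 and 1.76 and Mmp12, a macrophage elastase, by 1.27, 1.36 and 0.96. Mmp13, a collagenase, was called only at month 12 (1.07, 0.92 and 3.33). Timp4, an inhibitor of matrix metalloproteinases, averaged 8.05 ± 6.42 CPM in month 12 CCl4 and 0.189 ± 0.11 CPM in month 12 oil (SD, n = 6 each), a log2 fold change of 5.37 (SE 0.54). Timp1 was not called at any duration (0.31, 0.68 and -0.44).

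Receptors of collagen were called higher for 2 of 12 at month 2, 2 at month 6 and 6 at month 12. Lair1, an inhibitory receptor of leukocytes, rose at all 3 (0.60, 0.39 and 0.95). Ddr2, a tyrosine kinase receptor of fibrillar collagen, rose at month 2 (0.57, SE 0.17) and had -0.12 (SE 0.17) at month 12, and Ddr1, its epithelial relative, rose at month 12 (2.58, SE 0.35). Of 22 genes of the TGF beta and PDGF signals that drive collagen synthesis, 6 were called higher at month 2, 5 at month 6, and 14 higher and 2 lower at month 12. Pdgfrb, the PDGF receptor of stellate cells, averaged 17.4 ± 1.26 CPM in month 2 CCl4 and 9.15 ± 2.01 CPM in month 2 oil, and 20.7 ± 1.03 CPM in month 12 CCl4 and 11.5 ± 3.69 CPM in month 12 oil (SD, n = 6 each), with log2 fold changes of 0.92, 0.87 and 0.84. Tgfb1, the ligand, rose by 0.67, 0.55 and 0.54, and Tgfb2 by 1.08, 0.88 and 2.22, on the log2 scale.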

How the data were processed

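Stranded total RNA libraries were made after ribosomal RNA removal from 36 livers, per the labels' protocols. The authors deposited a table of raw counts with whole numbers for 32544 gene symbols. The submitters' processing notes name Biojupies for mapping, the build mm10, edgeR 3.30.3 and limma 3.44.3; the gene annotation is not stated in the sources at hand.

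From these counts, 15338 genes passed filterByExpr and were fitted once over 36 libraries with TMM scaling (factors 0.757 to 1.33) as 6 group means. The factors differed by treatment. They were 1.03 to 1.14, 1.09 to 1.17 and 1.24 to 1.33 in month 2, 6 and 12 CCl4. Month 0 had 0.757 to 0.868, month 2 oil 0.9 to 0.991 and month 12 oil 0.781 to 1.01. Differences were tested by quasi-likelihood in edgeR (version 4.0.16; R, version 4.3.3). Calls were made where p, adjusted by Benjamini-Hochberg within a comparison, was below 0.05; the background shares beside counts of the 9 collagens are over the same genes. SE is the fitted log2 change over the square root of F. Chain ratios used counts plus 0.5 and exact permutation. The code was tested on simulated counts. The 90 pairs of libraries within groups differed by at least 24.65 chi-square per degree of freedom, so none was a copy of another in its group. Libraries of different groups were not compared in this way. Mice carry only a number, so each was treated as independent. The edgeR p-values weigh a difference against the spread between mice, estimated over all 6 groups together.

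The 9 collagens, the 8 pathway lists, the 12 marker lists and the rule for naming genes (per list, the smallest p and members called against the list median, besides a panel of standard genes) were chosen with earlier results of these data known; genes named beyond that rule were chosen after their values were seen. Alternatives were RLE factors, library totals, other filters, a replicate block, limma-voom (limma 3.58.1), DESeq2 1.42.0, the compared groups only, a mesothelial covariate, other oil groups for month 6, sets of libraries left out and each library left out. Same replicate numbers in CCl4 and oil groups come from no shared source in the labels. No library was left out of the comparisons above.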

Additional observations from a re-analysis of the deposited data

Results flagged for a closer look

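Single mice stood apart from their group in 12 of 54 sets of 6 values, by a test of the gap to the nearest mouse that flags about 1 group in 20 by chance. They came from 4 libraries, and the 9 genes are not independent. Month 6 CCl4 replicate 2 was far above its group for 7 genes: Col1a1 at 77.2 CPM, Col1a2 at 162 CPM, Col3a1 at 533 CPM, Col5a1 at 26.1 CPM, Col5a2 at 62.9 CPM, Col6a1 at 69.5 CPM and Col6a2 at 45.2 CPM. Month 12 CCl4 replicate 6 was far above its group for Col6a1 (60.2 CPM) and Col6a2 (39.3 CPM), as was month 12 oil replicate 2 for the same genes (47.2 and 31.9 CPM). Month 2 oil replicate 6 was far above its group for Col1a1 (29.1 CPM).

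The CCl4 effect on Col5a1 differed between month 12 and month 2 by -0.85 on the log2 scale (edgeR interaction, adjusted p = 0.0251). Its fitted effect was -0.03 at month 12 and 0.82 at month 2. The call was lost without month 12 oil replicate 6 (-0.55, adjusted p = 0.0753), without month 12 CCl4 replicate 6 (-0.79, adjusted p = 0.0502), with library totals (-0.53, adjusted p = 0.184), with the mesothelial covariate (-0.60, adjusted p = 0.108) and with 4 libraries left out, replicate 2 of both oil groups and month 2 CCl4 replicates 1 and 6 (-0.81, adjusted p = 0.0759), all in the same edgeR test.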

How the results depend on the processing

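Of 1521 values under other settings, 1383 kept their direction and side of the threshold, 82 gained a call, 26 lost one and 30 changed sign. At month 2, 8 or 9 collagens were called under each setting run. At month 6 the count of 8 became 3 against month 12 oil alone, 6 with the compared groups only, 7 with the covariate, 9 with DESeq2, limma-voom or library totals, and 4 to 9 with single mice left out. At month 12 the count of 2 became 9 with library totals, 4 with a replicate block, 4 with limma-voom, 6 with the mesothelial covariate, 6 without replicate 2 of both oil groups, 4 with 4 libraries left out (these 2 and month 2 CCl4 replicates 1 and 6), 7 without the 2 oil mice highest in mesothelial markers, and 7 when month 6 CCl4 replicate 2 was left out as well (3 mice), both chosen after seeing the data; with single mice left out it was 2 to 5. The interaction count of 1 became 0 with library totals, the covariate or 4 libraries out, 2 with DESeq2, limma-voom, the compared groups only or the 2 or 3 mesothelial mice out, and 0 to 3 with single mice out. The 5 ratio calls became 9 without the 2 mesothelial oil mice and ran from 4 to 9 with single mice out; Col5a2 over Col5a1 at month 2 was lost (adjusted p = 0.0552) without replicate 2 of both oil groups. Signs turned as follows. Col5a1 at month 12, main -0.03: 0.49 (totals), 0.03 (replicate block), 0.09 (limma-voom), 0.14 (covariate), 0.03 (replicate 2 of both oil groups out), 0.01 (4 out), 0.03 (2 and 3 mesothelial mice out), and -0.16 to 0.28 with single mice out. Interaction: Col5a2 0.17 (totals) and 0.27 (covariate), -0.29 to 0.00 with single mice out; Col6a3 0.22 (totals), 0.06 (covariate), 0.00 (replicate 2 of both oil groups out) and 0.05 (4 out), -0.20 to 0.02; Col6a2 0.16 (covariate), 0.02 (replicate 2 of both oil groups out) and 0.09 (4 out), -0.86 to 0.01. Month 12 against month 2 oil: Col14a1 -0.01 (totals); Col6a2 -0.07 (replicate 2 of both oil groups out) and -0.05 (4 out), -0.06 to 0.60. Col1a1 over Col1a2 at month 2 ran from -0.02 to 0.12. The causes were not tested. With library totals the all-gene median was 0.199, 0.313 and 0.556 at months 2, 6 and 12. The replicate block gave 9, 9, 4 and 1 calls at months 2, 6, 12 and for the interaction. Same-numbered mice correlated from -0.71 to 0.22 over 2000 genes. Transcripts of other organs vary widely between mice and may hide a shared source, so these values do not settle whether the numbers pair mice. The lowest level of any of the 9 genes in a mouse was 3 CPM, Col6a2 at month 0.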
